A study of Mus musculus with 10 samples.

Results

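The collagen genes of the mouse were followed in embryonic forebrain from embryos with an active FoxO3 transgene and from control embryos. Members were the genes whose array probe sets named exactly 1 symbol of the form Col, number, a, number. They were 44 of 19938 genes measured, all 44 such genes of the RefSeq annotation, and rested on 46 of 35556 probe sets. Where a gene had several probe sets, the one with the highest mean was used, and only Col6a5 and Col6a6 had more than 1 to choose from. By class there were 11 fibrillar collagens, 9 fibril-associated collagens, 6 basement membrane (type IV) chains, 6 beaded filament (type VI) chains, 4 transmembrane collagens, 3 short-chain network collagens, 2 multiplexins and 3 others (Col7a1, Col26a1 and Col28a1).

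Collagens are secreted as triple helices of alpha chains, which are hydroxylated and folded inside the cell, trimmed outside it and cross-linked into fibrils or sheets. In the embryonic head, fibrillar collagens of types I, III and V are made mainly by mesenchyme, the loose connective tissue that forms dermis, skull and meninges, while type IV chains are laid down in the basement membranes of vessels and of the brain surface. Neuroepithelium and young neurons make little of the fibril-forming chains.

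The study asked how transcription in the forebrain at E12.5 changes when a constitutively active FoxO3 allele is expressed from the CaMKIIa promoter, which the submitters describe as forebrain-specific. RNA from part of each forebrain was hybridized to 1 Affymetrix array per embryo, and the values are the log2 signals that the authors deposited. There were 5 transgenic embryos (dtg in the titles, carrying the FoxO3 allele as described) and 5 control embryos (stg), all on a mixed CD1/NMRI background and taken from 2 dams 12 days after the plug. The labels do not spell out dtg and stg, do not say which transgene the controls carry, and do not assign embryos to dams. Litter could therefore not be modelled. The developing skin and the palate were cut away during dissection, per the labels, and forebrains were not sorted, so each value is from bulk tissue. In bulk samples, fewer cells of a type and less RNA per cell cannot be told apart.

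The 10 arrays had median log2 signals of 5.36 to 5.39 and correlated with each other at 0.980 to 0.996 over all genes. Control embryo 5 stood apart: its mean correlation with the other arrays was 0.985, where the next lowest was 0.992. Relative to the other 4 controls, its mesenchyme markers were higher by a median of 0.9998 on the log2 scale (19 of 19 above), its surface ectoderm markers by 0.52 (10 of 10), its endothelial markers by 0.37 (14 of 14) and its erythroid markers by 1.05 (6 of 6). Its neuron markers were lower, with a median difference of -1.16 (0 of 11 above). Its mural markers were split, with a median difference of 0.073 (5 of 10 above). The ventral forebrain gene Dlx1 read 6.91 to 8.42 in transgenic embryos, against 6.86 to 9.38 in control embryos 1 to 4 and 4.82 in control embryo 5. The forebrain markers did not move together: 4 of 7 (Emx1, Emx2, Lhx2 and Otx1) lay above the mean of the other controls in this embryo. Dlx1, Dlx2 and Six3 lay below it. Differences that this embryo turned or moved by over 1.5 times are therefore also given without it. How its tissue came to differ was not tested.

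No collagen differed between transgenic and control forebrains past the threshold. With limma and Benjamini-Hochberg adjustment over all genes, 0 of 44 collagens had an adjusted p below 0.05, where 21 genes (0.105% of all genes tested) did. At an unadjusted p below 0.05 there was 1 collagen (Col24a1, lower), or 2.27%, beside 7.58% of all genes in either direction and 3.48% lower. The 5 transgenic and 5 control values were free of overlap for 0 of 44 collagens and for 1.60% of all genes. Each share of collagens lay below that of all genes, but with 44 members counts of 0 or 1 are too few to tell the shares apart. Of the 44 differences, 18 were above 0 and 26 below, with a median of -0.015 on the log2 scale, beside -0.0038 over all genes.

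The side on which that median lay changed when control embryo 5 was left out. Then 29 of 44 differences were above 0 and 15 below, with a median of 0.051, beside -0.0045 over all genes. There were again 0 collagens with an adjusted p below 0.05 in limma, where 0.186% of all genes had one. At an unadjusted p below 0.05 there were 2 collagens (Col12a1 and Col2a1, both higher), or 4.55%, beside 6.83% of all genes in either direction and 3.92% higher. With this embryo left out, 1 of 44 collagens (2.27%) had groups without overlap, with the transgenic embryos above, beside 2.48% of all genes in either direction and 1.54% with the transgenic embryos above.

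**Figure D1:**
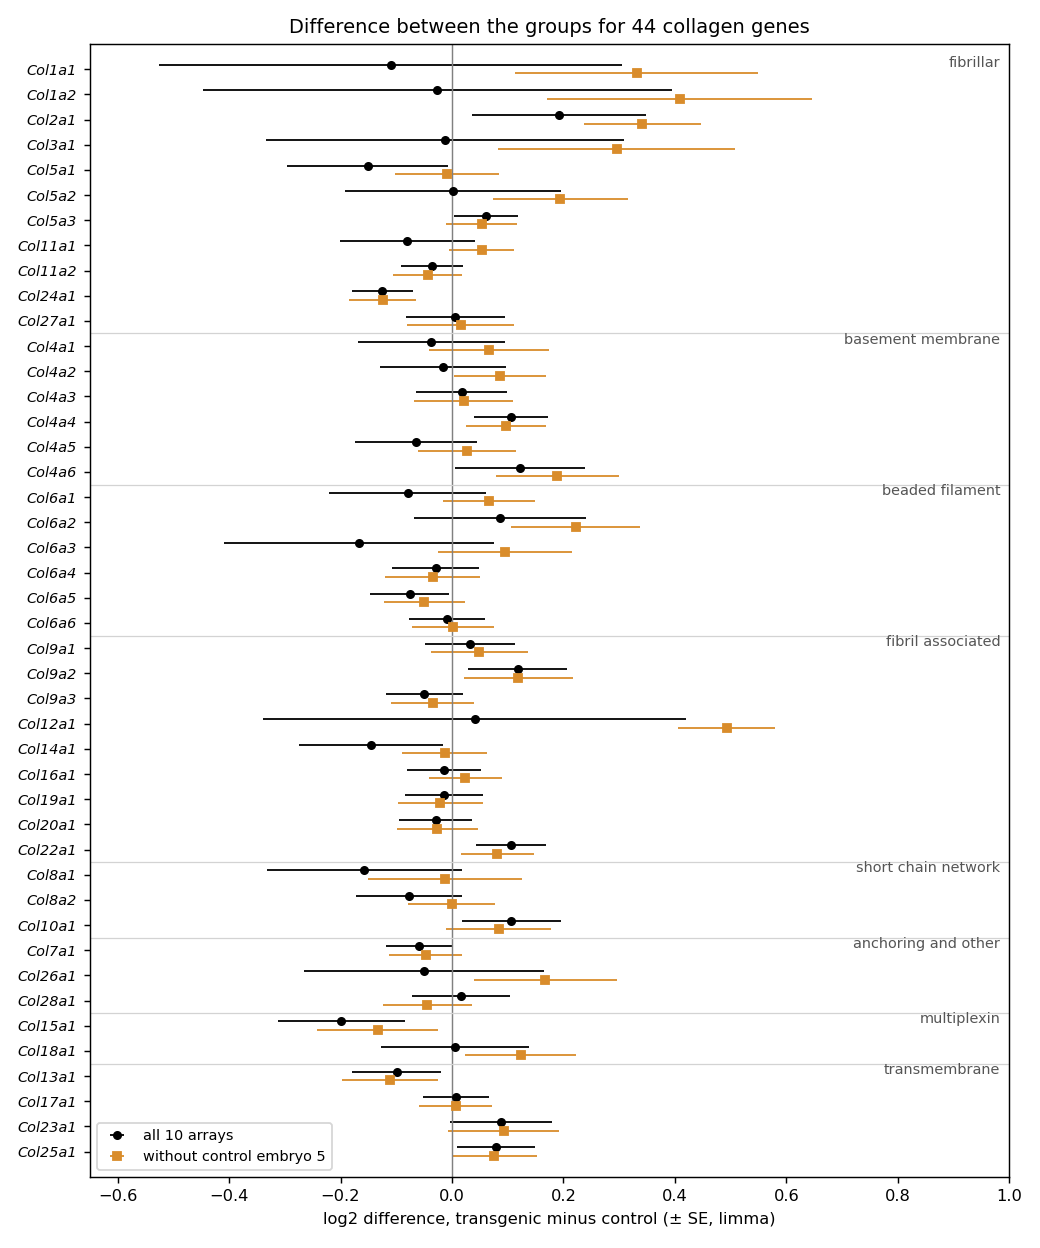
The log2 difference, transgenic minus control, of each of the 44 collagens, with its standard error from limma, for all 10 arrays and without control embryo 5. With all arrays the differences run from -0.20 (Col15a1) to 0.19 (Col2a1), and Col12a1 shows the widest gap between the fits, 0.04 with control embryo 5 and 0.49 without it.

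Types I and III are the main fibril-forming collagens of mesenchyme. The promoters of Col1a2 and Col3a1, taken from RefSeq (GRCm38.p6, 250 bases before to 50 bases after the annotated start), are shown. Both genes followed the same embryos, and whether their promoters bear on this was not tested. Capitals mark CCAAT (or ATTGG, its reverse complement) and TATAAA (read on both strands). The Col1a2 window is chr6:4505368-4505667 on the plus strand and the Col3a1 window chr1:45311288-45311587 on the plus strand.
Col1a2: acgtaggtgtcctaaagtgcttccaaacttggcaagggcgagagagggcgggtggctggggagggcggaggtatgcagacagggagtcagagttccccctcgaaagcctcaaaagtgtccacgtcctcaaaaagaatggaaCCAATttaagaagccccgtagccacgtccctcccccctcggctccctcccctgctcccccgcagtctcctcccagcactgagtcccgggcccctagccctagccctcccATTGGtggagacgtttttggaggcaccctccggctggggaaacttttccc
Col3a1: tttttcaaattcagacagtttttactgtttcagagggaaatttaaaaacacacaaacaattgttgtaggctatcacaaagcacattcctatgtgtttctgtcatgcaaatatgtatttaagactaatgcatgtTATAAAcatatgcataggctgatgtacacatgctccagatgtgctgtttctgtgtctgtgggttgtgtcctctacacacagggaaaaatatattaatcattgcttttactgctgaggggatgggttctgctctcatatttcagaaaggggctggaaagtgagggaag

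The Col1a2 window held CCAAT in both orientations and no TATAAA, while the Col3a1 window held TATAAA and no CCAAT. Among 38 windows of the 35 collagens with a promoter entry, 34.2% held CCAAT, beside 37.4% of 32851 windows of all genes. TATAAA was found in 13.2% of collagen windows and 13.6% of all windows. GGGCGG, the core of the GC box bound by Sp1, was in 60.5% of collagen windows and 35.7% of all windows. GTAAACA, a core that forkhead factors such as FoxO3 can bind, was in 1 collagen window (Col6a1), or 2.63%, beside 3.65% of all windows. Each motif was read on both strands, and a match is a description of the letters only.

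Col1a1, a chain of type I collagen, had log2 signals of 8.54, 9.03, 8.32, 8.46 and 7.97 in transgenic embryos 1 to 5, against 7.68, 8.01, 8.75, 8.09 and 10.34 in control embryos 1 to 5. Col1a2, its partner chain, read 8.57, 8.95, 8.38, 8.39 and 7.92 in the transgenic embryos and 7.56, 7.74, 8.78, 8.05 and 10.21 in the controls. Col3a1, which forms type III fibrils in skin, vessels and meninges, read 8.40, 8.78, 8.18, 8.40 and 7.98 in the transgenic embryos and 7.60, 7.77, 8.75, 8.10 and 9.59 in the controls. For all 3 genes the order ran alike: control embryo 5 was the highest, transgenic embryo 2 was next, control embryo 3 lay close to it, and control embryo 1 was the lowest. The transgenic values lay within the range of the controls.

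The group means of Col1a1 were 8.46 ± 0.38 in transgenic embryos and 8.57 ± 1.06 in controls (SD, n = 5 each), a log2 difference of -0.11 ± 0.42 (SE, adjusted p = 0.976 in limma). The difference was -0.027 ± 0.42 for Col1a2 (adjusted p = 0.994 in limma) and -0.012 ± 0.32 for Col3a1 (adjusted p = 0.997 in limma). Leaving out control embryo 5 turned the differences to 0.33 ± 0.22 for Col1a1, 0.41 ± 0.24 for Col1a2 and 0.30 ± 0.21 for Col3a1, with adjusted p of 0.872, 0.824 and 0.890 in limma. Control embryo 5 lay 4.61-fold above the mean of the other controls for Col1a1, 4.51-fold for Col1a2 and 2.91-fold for Col3a1. The SD among the 5 controls was larger than the difference between the groups for each of the 3 genes. Among all 19938 genes, Col1a2 ranked 40, Col1a1 41 and Col3a1 114 by SD over the 10 arrays.

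**Figure D2:**
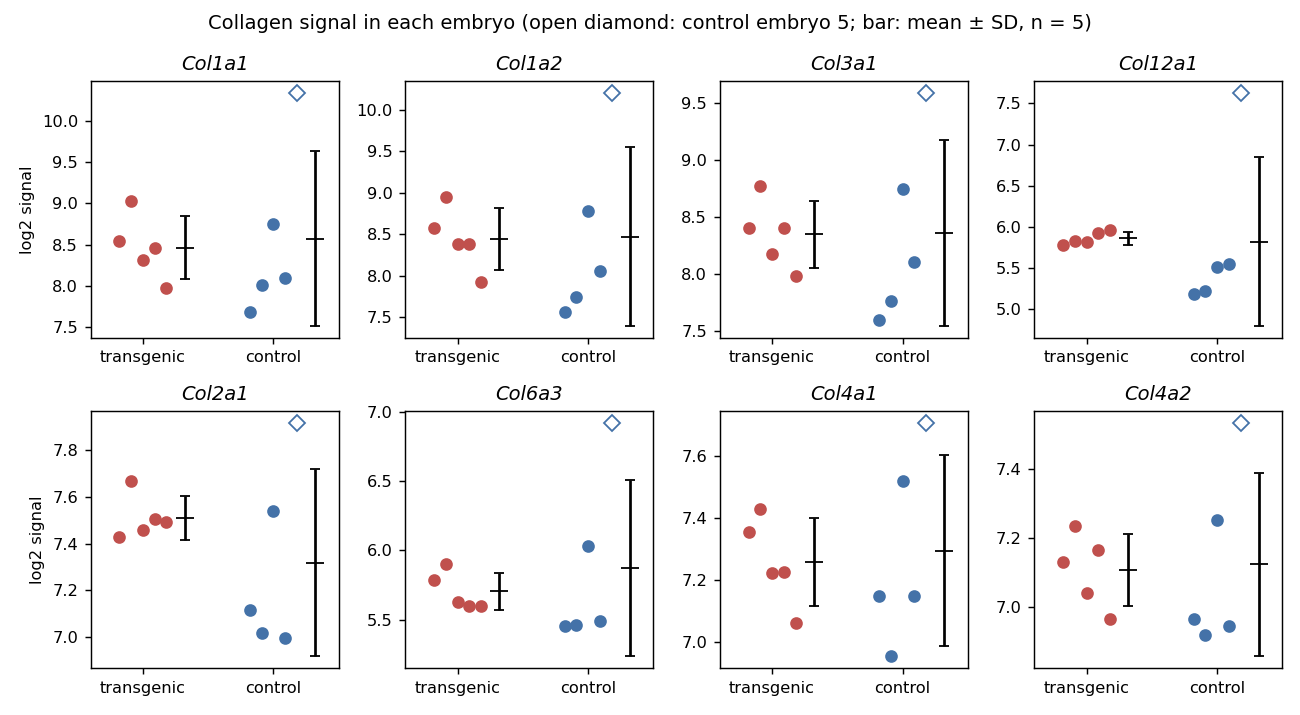
The log2 signal of 8 collagens in each embryo, with transgenic embryos left of controls, points for embryos (an open diamond for control embryo 5) and bars for the group mean ± SD. Control embryo 5 is the highest point in every panel, and the transgenic values lie within the range of the controls for Col1a1, Col1a2 and Col3a1.

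With all 10 arrays, the other fibrillar collagens split into those that followed type I and those that did not. For the type V chains this split was seen only with control embryo 5 included. With all arrays, r with Col1a1 was 0.91 for Col5a1, 0.89 for Col5a2 and 0.091 for Col5a3. Without that embryo it was 0.68, 0.67 and 0.62. Type V chains start fibrils and limit their width. Col5a1 read 6.07 to 6.53 in transgenic embryos (median 6.15) and 6.14 to 6.94 in controls (median 6.28), a log2 difference of -0.15 ± 0.14 (adjusted p = 0.868 in limma) that was -0.0087 without control embryo 5. Col5a2 read 6.92 to 7.50 in transgenic embryos and 6.92 to 7.96 in controls, a difference of 0.0021 ± 0.19 (adjusted p = 0.999 in limma), or 0.19 without control embryo 5. In both genes control embryo 5 was the highest. Col5a3, the third type V chain, read 5.63 to 5.84 in transgenic embryos and 5.65 to 5.74 in controls and was highest in transgenic embryo 2.

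Col2a1, the fibrillar collagen of cartilage and notochord, read 7.43, 7.67, 7.46, 7.51 and 7.49 in transgenic embryos 1 to 5, against 7.12, 7.02, 7.54, 6.997 and 7.92 in control embryos 1 to 5. Control embryos 1, 2 and 4 lay below every transgenic embryo, while control embryos 3 and 5 lay among or above them. The log2 difference was 0.19 ± 0.16 (adjusted p = 0.841 in limma, exact two-sided permutation p = 0.333). It was 0.34 ± 0.10 without control embryo 5 (adjusted p = 0.381 in limma, exact permutation p = 0.0476), a 1.27-fold higher signal that did not pass the adjustment. Col11a1, which starts type II fibrils, read 6.68 to 6.84 in transgenic embryos and 6.66 to 6.75 in control embryos 1 to 4, with 7.38 in control embryo 5 (difference -0.080 with that embryo and 0.053 without it). Of 10 other cartilage markers, 2 were higher and 8 lower in transgenic embryos, and none passed the adjustment in limma. Without control embryo 5, 3 were higher and 7 lower.

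Col24a1, a minor fibrillar collagen of developing bone, was the collagen with the smallest p. It read 5.11, 5.28, 5.22, 5.14 and 5.09 in transgenic embryos 1 to 5, against 5.39, 5.30, 5.25, 5.24 and 5.30 in control embryos 1 to 5. In 4 of 5 transgenic embryos the signal lay below every control, and transgenic embryo 2 lay among them. The log2 difference was -0.12 ± 0.055 (unadjusted p = 0.0411, adjusted p = 0.637 in limma). The exact permutation p was 0.0317, where 252 assignments allow no p below 0.00794. The difference was also -0.12 without control embryo 5 (adjusted p = 0.751 in limma). It did not pass the adjustment with or without that embryo.

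Type IV chains form the sheet of every basement membrane. Col4a1 and Col4a2 lie head to head on chromosome 8, and their promoter windows share 78 bases (chr8:11312777-11312854). The Col4a1 window is shown, and only its last 78 bases are shared. It is chr8:11312777-11313076 on the minus strand, from RefSeq (GRCm38.p6), with capitals marking ATTGG, the reverse complement of CCAAT. The marked ATTGG begins 145 bases before the Col4a1 start, outside the shared bases.
Col4a1: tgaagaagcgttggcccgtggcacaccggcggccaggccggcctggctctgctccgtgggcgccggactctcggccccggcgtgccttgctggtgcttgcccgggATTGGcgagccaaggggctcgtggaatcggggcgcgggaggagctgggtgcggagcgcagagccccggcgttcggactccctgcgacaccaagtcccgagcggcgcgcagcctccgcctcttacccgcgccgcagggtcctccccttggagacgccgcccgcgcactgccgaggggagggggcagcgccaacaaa

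Col4a1 read 7.35, 7.43, 7.22, 7.23 and 7.06 in transgenic embryos 1 to 5, against 7.15, 6.95, 7.52, 7.15 and 7.71 in control embryos 1 to 5. Col4a2 read 7.13, 7.23, 7.04, 7.16 and 6.97 in the transgenic embryos and 6.96, 6.92, 7.25, 6.95 and 7.53 in the controls. Control embryos 5 and 3 and transgenic embryo 2 were the 3 highest for both chains, and the groups overlapped. The log2 difference was -0.037 ± 0.13 for Col4a1 (adjusted p = 0.974 in limma) and -0.016 ± 0.11 for Col4a2 (adjusted p = 0.985 in limma). With control embryo 5 left out these were 0.066 and 0.086, with adjusted p of 0.974 and 0.935 in limma.

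The remaining type IV chains belong to specialised membranes such as those of the kidney and eye. Col4a4 read 4.97 to 5.27 in transgenic embryos and 4.96 to 5.16 in controls, a log2 difference of 0.11 ± 0.066 (adjusted p = 0.781 in limma). In 3 of 5 transgenic embryos it lay above every control. Col4a5 was highest in control embryo 5 (6.34), while Col4a3 and Col4a6 were highest in transgenic embryo 2. Over the 6 type IV chains, 3 differences were above 0 and 3 below. All 6 were above 0 without control embryo 5, with a median of 0.076, and none passed the adjustment in limma.

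Type VI collagen forms beaded microfibrils close to basement membranes from Col6a1, Col6a2 and Col6a3. Col6a3 read 5.78, 5.90, 5.63, 5.60 and 5.60 in transgenic embryos 1 to 5, against 5.45, 5.46, 6.03, 5.49 and 6.92 in control embryos 1 to 5. Control embryo 5 was 2.48-fold above the other controls, and the remaining 9 embryos spanned 5.45 to 6.03. The log2 difference was -0.17 ± 0.24 (adjusted p = 0.918 in limma), and 0.095 ± 0.12 without control embryo 5 (adjusted p = 0.961 in limma). Col6a1 differed by -0.079 ± 0.14 and Col6a2 by 0.086 ± 0.15, with adjusted p of 0.939 and 0.941 in limma. Both were also highest in control embryo 5, at 6.81, and differed by 0.066 and 0.22 without it. The chains Col6a4, Col6a5 and Col6a6 had SDs of 0.08 to 0.15 within groups.

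Col12a1, a fibril-associated collagen of dense connective tissue, showed the largest dependence on 1 array and was singled out after its values were seen. It read 5.79, 5.83, 5.81, 5.92 and 5.96 in transgenic embryos 1 to 5, against 5.18, 5.22, 5.52, 5.55 and 7.63 in control embryos 1 to 5. All 5 transgenic embryos lay above control embryos 1 to 4 and all lay far below control embryo 5, which was 4.79-fold above the other controls. With all arrays the log2 difference was 0.041 ± 0.38 (adjusted p = 0.989 in limma, exact permutation p = 1). Without control embryo 5 it was 0.49 ± 0.087, a 1.41-fold higher signal (adjusted p = 0.0536 in limma), and it was the 1 collagen whose groups did not overlap. The exact permutation p was then 0.00794, the smallest that 126 assignments of 5 against 4 embryos can give.

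Among the other fibril-associated collagens, no difference passed the adjustment in limma. Col9a1, Col9a2 and Col9a3 encode type IX, which coats cartilage fibrils and is also made outside cartilage. Col9a2 read 6.26 to 6.60 in transgenic embryos and 6.12 to 6.52 in controls, a log2 difference of 0.12 ± 0.09 (adjusted p = 0.833 in limma). Col9a1 differed by 0.032 ± 0.081, or 0.049 without control embryo 5. Col14a1, found with type I fibrils, read 4.74 to 4.87 in transgenic embryos and 4.63 to 5.47 in controls (difference -0.15 ± 0.13, or -0.013 without control embryo 5). Col22a1, known from tissue junctions such as the tendon end of muscle, read 5.91 to 6.02 in transgenic embryos and 5.73 to 6.03 in controls (difference 0.11 ± 0.063, adjusted p = 0.765 in limma).

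The multiplexins Col15a1 and Col18a1 sit in vascular and epithelial basement membranes, and Col18a1 is the source of endostatin. Col15a1 had the largest negative difference of the 44 collagens. It read 5.46, 6.02, 5.59, 5.82 and 5.86 in transgenic embryos 1 to 5, against 5.73, 5.90, 6.04, 5.87 and 6.21 in control embryos 1 to 5. Transgenic embryos 1 and 3 lay below every control and the other 3 lay among them. The log2 difference was -0.20 ± 0.11 (adjusted p = 0.756 in limma, exact permutation p = 0.159), and -0.13 ± 0.11 without control embryo 5. Col18a1 differed by 0.0053 ± 0.13, or 0.12 without control embryo 5, with control embryo 5 the highest at 7.19.

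Network, transmembrane and unplaced collagens showed small differences. Col10a1, made by hypertrophic cartilage, read 3.58 to 3.997 in transgenic embryos and 3.56 to 3.88 in controls (difference 0.11 ± 0.089). Col8a1, a network collagen of vessel walls and cornea, read 4.14 to 4.74 in transgenic embryos and 4.14 to 5.19 in controls (difference -0.16 with all arrays and -0.012 without control embryo 5). Both lie among the 8 collagens whose mean fell below the 40th percentile of all genes, where a signal carries little information on the gene's level. The transmembrane collagen Col13a1, known from the neuromuscular junction, differed by -0.099 ± 0.079, and the neuronal Col25a1 by 0.079 ± 0.070. Col26a1 read 6.73 to 7.27 in transgenic embryos and 6.55 to 7.89 in controls, with control embryo 5 again the highest (difference -0.051 with that embryo and 0.17 without it). The remaining 18 collagens had differences of -0.078 to 0.12 and adjusted p of at least 0.865 in limma.

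Most collagens nevertheless varied between embryos more than the median gene. The median SD of the 44 over the 10 arrays was 0.156 on the log2 scale, against 0.123 over all genes, and 29 of 44 lay above the all-gene median. These SDs include control embryo 5. Control embryo 5 had the highest signal of all arrays for 23 of 44 collagens (52.3%), beside 18.4% of all genes. Relative to the other controls, its differences ran from -0.30 to 2.26 with a median of 0.16. With it left out, transgenic embryo 2 was the highest for 23 of 44 (52.3%), beside 11.4% of all genes. Of the 4 transmembrane collagens, 0 were highest in control embryo 5, too few genes to tell apart from the 18.4% of all genes. The median correlation over the 946 pairs of collagens was 0.342, and 0.385 without control embryo 5.

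**Figure D3:**
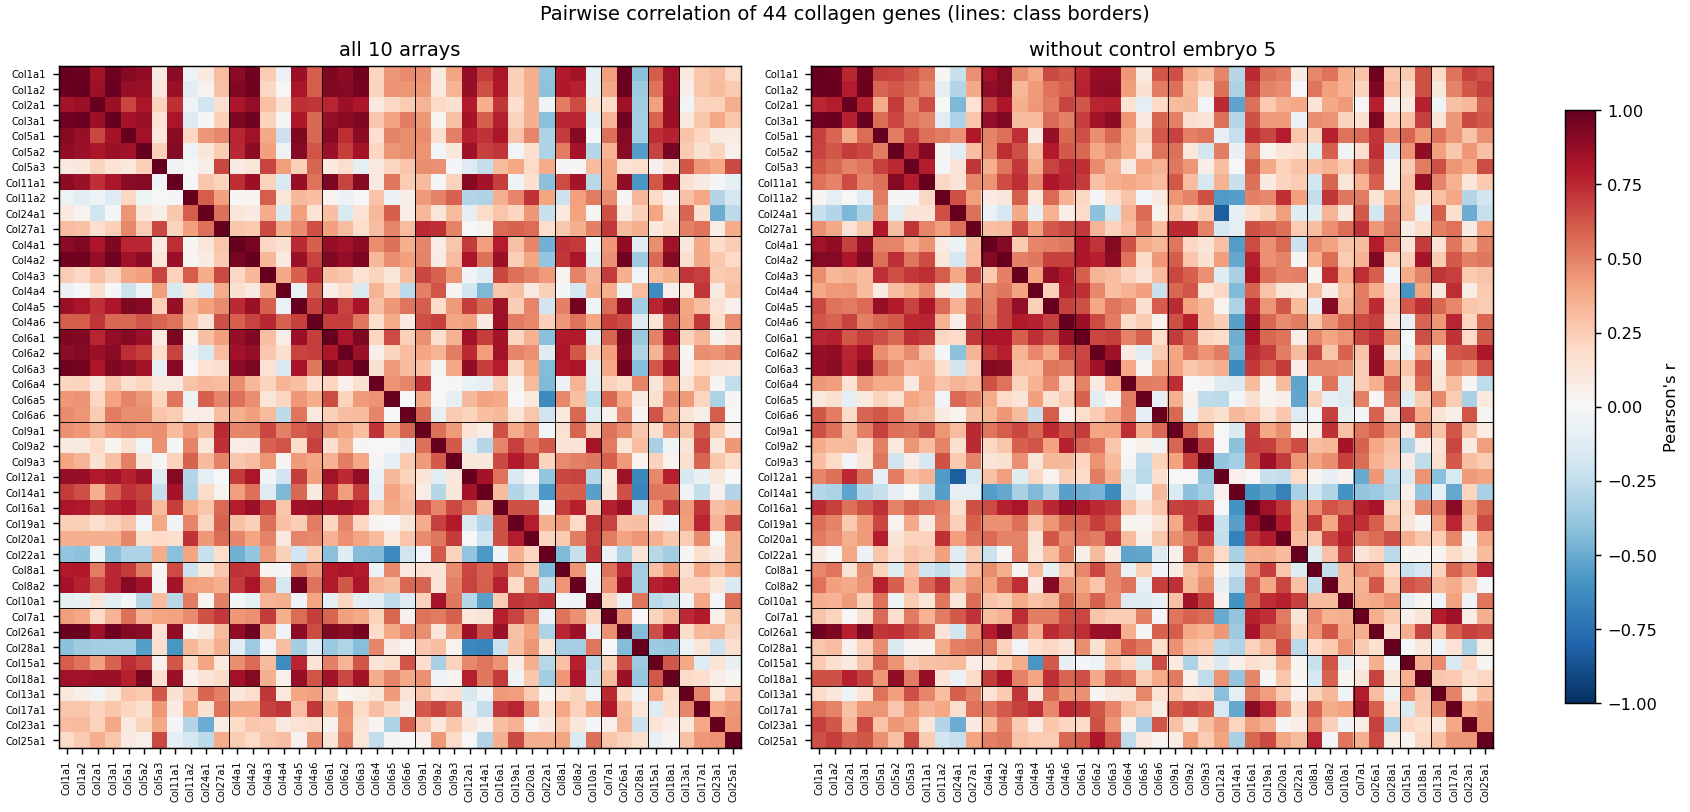
Pearson's r over the 10 arrays between every pair of the 44 collagens, ordered by class, with all 10 arrays on the left and without control embryo 5 on the right. With all arrays, Col1a1, Col1a2, Col3a1, Col5a1, Col5a2 and the chains Col6a1 to Col6a3 form a block of high r (median 0.878 among the first 5), while Col5a3, the transmembrane collagens and Col11a2 lie outside it. Without control embryo 5 that median is 0.673. There, r with Col1a1 is 0.62 for Col5a3, 0.68 for Col23a1, 0.65 for Col25a1 and 0.55 for Col17a1. It is 0.19 for Col13a1 and 0.019 for Col11a2.

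Chains that assemble together were compared as 14 fixed pairs, with p-values from 100000 permutations and adjusted over the 14. Col1a1 and Col1a2 had r = 0.992 and Spearman's rho = 0.988 (adjusted permutation p = 7e-05 for r and 0.00014 for rho). This r was 0.973 without the 2 arrays farthest from the median of Col1a1. Col1a1 and Col3a1 had r = 0.976 and rho = 0.976 (adjusted permutation p = 7e-05 and 0.00014), and r = 0.956 without the 2 farthest arrays. Col4a1 and Col4a2 had r = 0.951 and rho = 0.952 (adjusted permutation p = 9.33e-05 and 0.000233), and r = 0.888 without the 2 farthest arrays. These 3 pairs kept an adjusted p below 0.05 without the 2 farthest arrays and without control embryo 5.

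Another 4 pairs passed with all 10 arrays but not without control embryo 5 or without the 2 farthest arrays, where fewer arrays also leave larger p-values. Col6a1 and Col6a3 had r = 0.933 and rho = 0.733 (adjusted permutation p = 0.00608 and 0.0396), with r = 0.773 without the 2 farthest arrays (adjusted p = 0.0992). Col6a1 and Col6a2 had r = 0.808 and rho = 0.758 (adjusted permutation p = 0.0074 and 0.0396), with r = 0.726 without the 2 farthest. Col2a1 and Col11a1 had r = 0.730 and rho = 0.806 (adjusted permutation p = 0.00608 and 0.0268), with r = 0.764 without the 2 farthest (adjusted p = 0.111). For Col5a1 and Col5a2, r was 0.839 and rho 0.515 (adjusted permutation p = 0.0186 and 0.188), and r was 0.107 without the 2 farthest arrays, so that relation rested on those arrays. The other 7 pairs did not pass by r. They included Col11a1 with Col11a2 (r = -0.0082), Col4a3 with Col4a4 (r = 0.378), Col8a1 with Col8a2 (r = 0.441) and the 3 type IX pairs (r = 0.422 to 0.615). Of these chains, Col4a3, Col8a1 and Col9a1 had a mean below the 40th percentile of all genes, where a signal carries little information. Col4a5 with Col4a6 had r = 0.687 (adjusted p = 0.053) and rho = 0.745 (adjusted p = 0.0396, both by permutation).

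How far collagens read out mesenchyme was described against the mean log2 of 19 mesenchyme markers, among them Twist1, Prrx1, Pdgfra and Lum. The marker mean was 5.30 to 5.73 in transgenic embryos and 5.19 to 6.39 in controls, or 5.19 to 5.67 in control embryos 1 to 4. Correlations were also taken with mural, endothelial and neuron marker means, so p-values were adjusted over 176 relations. Col3a1 had r = 0.97 and rho = 0.96 with the mesenchyme mean (adjusted permutation p = 0.00176 and 0.00704). Col1a1 had r = 0.98 and rho = 0.93 (adjusted permutation p = 0.00235 and 0.0188), Col4a2 r = 0.97 and rho = 0.88 (0.00235 and 0.0407), and Col26a1 r = 0.97 and rho = 0.89 (0.00317 and 0.0407). Col1a2 had r = 0.97 and rho = 0.95 (0.00308 and 0.00704). These 5 collagens tracked the marker mean in rank as well as in value.

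**Figure D4:**
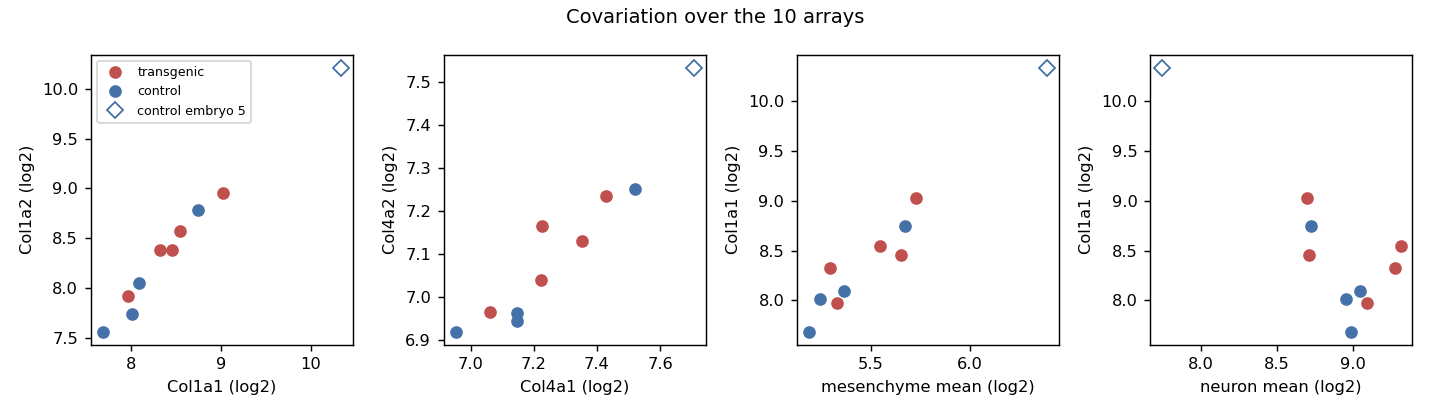
Log2 signals of collagens in each of the 10 embryos, plotted against a partner chain (Col1a2 against Col1a1, Col4a2 against Col4a1) or, for Col1a1, the mesenchyme and neuron marker means, with transgenic embryos in red and controls in blue. Control embryo 5 has the highest signal in each panel, and the other 9 embryos keep r = 0.981 for Col1a1 with Col1a2.

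Across all 44 collagens, 18 correlated positively with the mesenchyme mean at an adjusted permutation p below 0.05 by r, and 5 by rho, with a median r of 0.52. By r above 0.8 there were 17 of 44 (38.6%), against 3.22% of 19875 other genes. Without control embryo 5, 7 of 44 (15.9%) had r above 0.8, against 1.02% of other genes. With that embryo left out, 4 passed the adjustment by exact permutation: Col3a1 (r = 0.95, adjusted p = 0.0112), Col1a1 (r = 0.92, adjusted p = 0.0373), Col26a1 (r = 0.91, adjusted p = 0.0373) and Col4a2 (r = 0.94, adjusted p = 0.047). Leaving out the 2 arrays farthest from the median of the marker mean (transgenic embryo 2 and control embryo 5), 0 passed, with r of 0.93 for Col3a1 (adjusted p = 0.1) and 0.92 for Col4a2 (adjusted p = 0.166). Read as a marker of mesenchyme, the family was thus uneven. With all arrays, Col10a1, Col22a1, Col24a1 and Col28a1 had r between -0.48 and 0.04 with the marker mean. Without control embryo 5, r was 0.059 for Col10a1, -0.073 for Col22a1, -0.31 for Col24a1 and 0.091 for Col28a1. Of these collagens, Col10a1 and Col28a1 had a mean below the 40th percentile of all genes, where a signal carries little information.

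The mesenchyme mean was not the only one the collagens followed. The endothelial mean was 5.96 to 6.26 in transgenic embryos and 5.96 to 6.50 in controls, and 17 of 44 collagens correlated with it by r, 0 by rho. By r above 0.8 there were 14 of 44 (31.8%), against 2.90% of other genes. The mural mean, from markers of pericytes and smooth muscle, gave 10 by r and 1 by rho, with 12 of 44 (27.3%) at r above 0.8, against 1.43% of other genes. The mural markers did not move together in control embryo 5. Relative to the other controls, 5 of 10 were higher there, most of all Acta2 (2.85), Tagln (1.12) and Pdgfrb (0.77, log2). Rgs5, Kcnj8, Abcc9, Cspg4 and Higd1b were lower there. The neuron mean, 8.70 to 9.31 in transgenic embryos and 7.75 to 9.04 in controls, gave 11 negative correlations by r and 2 by rho. The share of other genes with such negative correlations was not taken, so these counts cannot be read as particular to collagens. When control embryo 5 was left out, 0 collagens passed with the endothelial, mural or neuron mean. The median r was then 0.51 with the endothelial mean, where it was 0.55 with all arrays, and 6 of 44 (13.6%) had r above 0.8, against 1.10% of other genes. Col4a2 had r = 0.90 with it (adjusted permutation p = 0.0546). For the mural mean the median r was 0.32 without control embryo 5 and 0.51 with all arrays, and for the neuron mean -0.31 and -0.45. Whether a collagen followed mesenchyme more closely than endothelium was not tested.

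**Figure D5:**
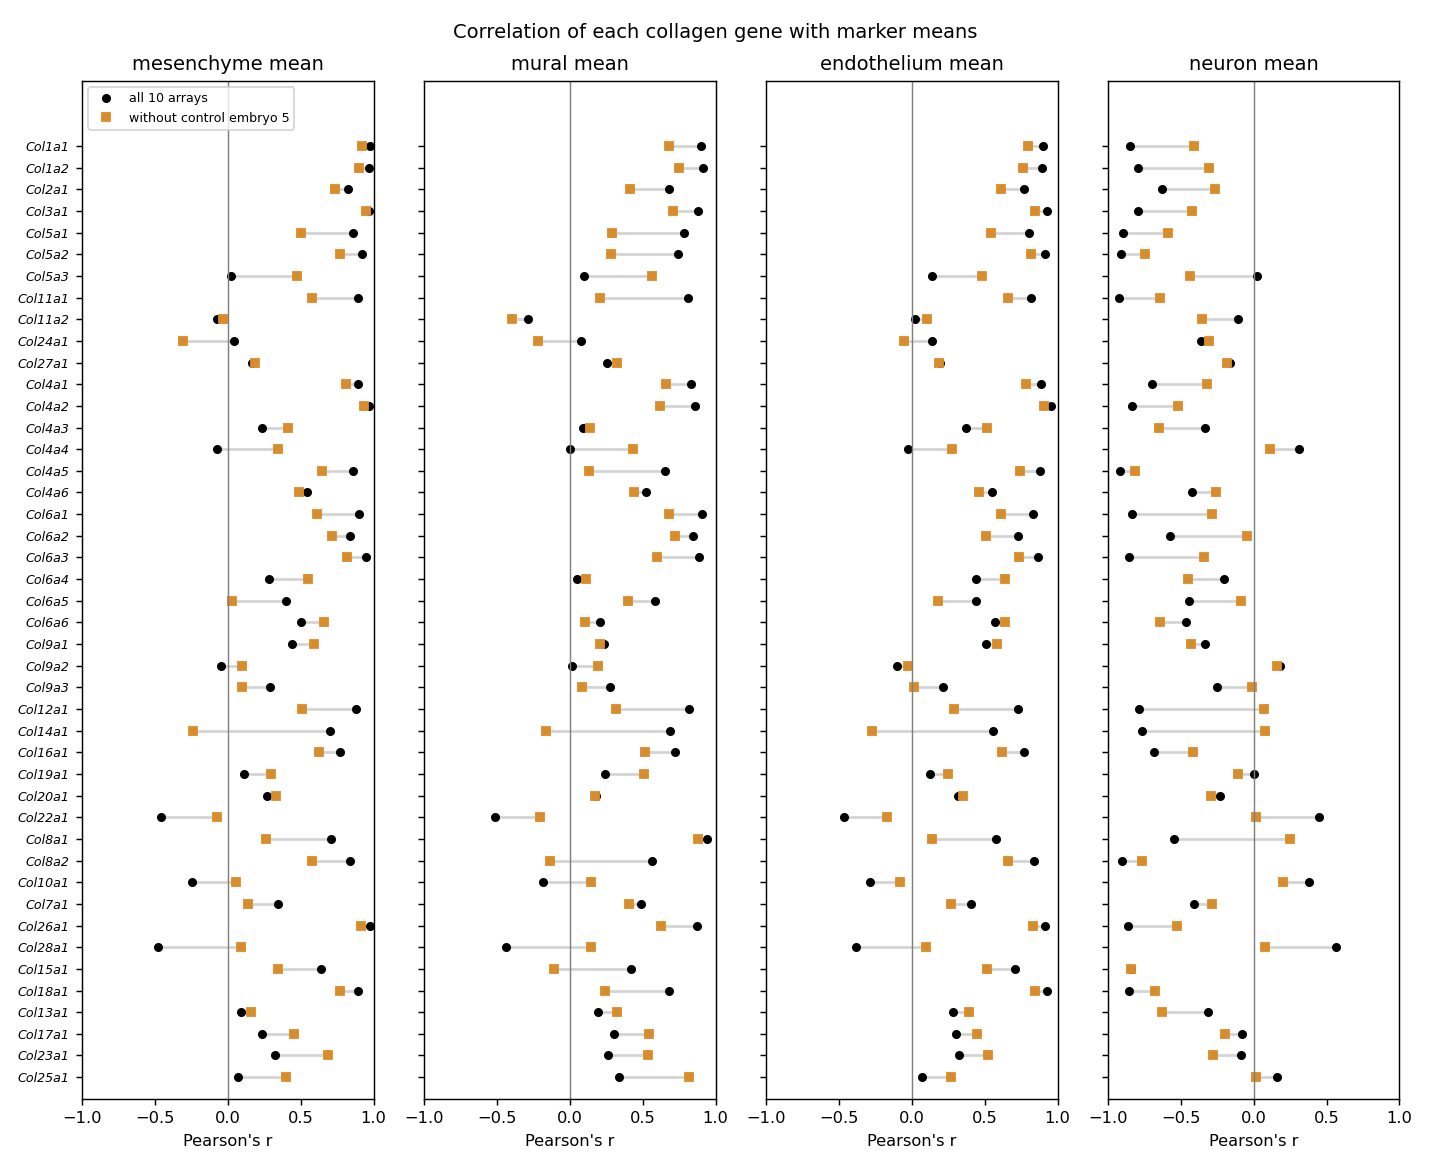
Pearson's r of each of the 44 collagens with the mesenchyme, mural, endothelial and neuron marker means, over all 10 arrays (circles) and without control embryo 5 (squares). With the mesenchyme mean, Col1a1, Col3a1, Col4a2 and Col26a1 lie at 0.91 or above in both, while without control embryo 5 Col5a1 lies at 0.50 and Col12a1 at 0.51.

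The genes most like Col1a1 were searched among 9940 non-collagen genes with a mean above the median. Over the 10 arrays they were Anxa6 (r = 0.977), the laminin chain Lama2 (r = 0.972), the fibrillin Fbn2 (r = 0.971), Hmcn1 (r = 0.968), the collagen receptor Ddr2 (r = 0.966) and the mural receptor Pdgfrb (r = 0.965). With control embryo 5 left out, the leading gene was Adamts12 (r = 0.951), and Anxa6 remained among the first 6. The genes most like Col4a1 were Dab2 (r = 0.977), Arhgap29 (r = 0.967), the basement membrane linker Nid1 (r = 0.961), Bmp7 (r = 0.960), Tmem88 (r = 0.960) and Cachd1 (r = 0.958). Among the 9 other arrays, Bmp7 (r = 0.978) and Dab2 (r = 0.971) led. Since the arrays share the same embryos and control embryo 5, these r are a description.

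The genes that make, bind and cut collagen gave no group difference past the adjustment either. Of 27 genes for hydroxylation, folding, trimming and cross-linking, 9 were higher and 18 lower in transgenic embryos, with 0 called in limma and a median log2 difference of -0.071. Without control embryo 5, 19 were higher and 8 lower, with a median of 0.044. The crosslinking enzyme Lox differed by -0.22 ± 0.28 and the collagen chaperone Serpinh1 by -0.073 ± 0.15, and both turned without control embryo 5 (0.054 for Lox and 0.041 for Serpinh1). The smallest p of this list was that of Tll1, a protease that trims procollagen, at 0.26 ± 0.10 (adjusted p = 0.580 in limma). Of 10 receptors, 3 were higher and 7 lower (5 and 5 without control embryo 5), and Ddr1, the epithelial discoidin receptor, differed by 0.13 (adjusted p = 0.573 in limma).

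Among 21 other matrix proteins, 7 were higher and 14 lower in transgenic embryos, and 16 were higher and 5 lower without control embryo 5. Lama5, a laminin chain, differed by -0.21 (adjusted p = 0.639 in limma), or -0.13 without control embryo 5. Thbs1, a matricellular protein, differed by 0.21 with all arrays and by 0.51 without control embryo 5 (adjusted p = 0.901 and 0.0837 in limma). Of 8 collagenases and inhibitors, 4 were higher and 4 lower, and all 8 were higher without control embryo 5, none past the adjustment. Mmp2, a gelatinase of mesenchyme, differed by 0.58 ± 0.26 (adjusted p = 0.642 in limma) and by 0.79 without control embryo 5 (adjusted p = 0.220 in limma). Mmp8, a neutrophil collagenase, differed by 0.22 (adjusted p = 0.494 in limma).

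The mesenchyme markers had 5 higher and 14 lower in transgenic embryos, with a median of -0.11, and 16 higher and 3 lower without control embryo 5, with a median of 0.092. Foxd1, a forkhead factor of head mesenchyme and ventral forebrain, had the smallest p among them, at 0.84 ± 0.22 (adjusted p = 0.269 in limma). The sign of the list thus turned with the same array that turned the collagens. The other marker lists had no gene past the adjustment in limma. In transgenic embryos, 3 of 14 endothelial, 5 of 10 mural, 1 of 10 surface ectoderm, 0 of 6 erythroid, 5 of 10 radial glia and 2 of 7 forebrain markers were higher, as were 11 of 11 neuron markers. Those counts became 9, 8, 3, 2, 4, 2 and 8 without control embryo 5. The part of tissue content in the collagen values was not tested beyond a covariate. When the mesenchyme mean was put into the limma fit as a covariate, 23 collagens were above 0 and 21 below, with 0 of 44 called and Col2a1 at 0.24 (adjusted p = 0.256). Over all 19938 genes, 9580 were above 0 and 10358 below in that fit. It called 123 genes, where the fit without the covariate called 21. Mmp2 was among the 123, higher by 0.65 (adjusted p = 0.018 in limma).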

How the data were processed

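The values were deposited by the authors as log2 signals of 35556 probe sets on 10 arrays, and the submitters' processing notes name Affymetrix Expression Console as the tool. Its version and settings are not given in the sources used here. Array medians were close to equal, and no further normalization, floor or pseudocount was applied. Probe sets were named from the platform's gene table and RefSeq (GRCm38.p6): 21789 named 1 gene, 1621 several and 12146 none. The precision is limited by the number of arrays. Groups came from the sample titles. P-values measure the spread between these embryos.

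The group comparison used limma (3.58.1, R 4.3.3, group only, empirical Bayes, two-sided, Benjamini-Hochberg over 19938 genes, threshold 0.05). For single genes, exact permutation tests went through all assignments of embryos to groups (Python 3.11.15, numpy 2.4.6). The procedure was tested on simulated data. Correlations used 100000 permutations with 10 arrays and all permutations with fewer, with ranks for rho from scipy 1.17.1. Dixon's ratio was taken within groups. The labels do not say whether replicate numbers pair embryos. Same-numbered deviations from the group means correlated at -0.246 to 0.238, which cannot exclude a pairing.

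The collagens and all lists were chosen with earlier results of these data known. Genes named were 15 collagens of the main types and the 8 others with the smallest p; Col12a1, Col26a1 and Col8a1 were added after their values were seen, as were collagens named for where they were highest or for their correlations. In the other lists the members with the smallest p were named, and Lox, Serpinh1 and Thbs1 were added after their values were seen. Alternatives were leaving out each embryo, a replicate block, array weights, trend and robust variances, quantile normalization, median centring, a filter at the 40th percentile, all probe sets, and the mesenchyme mean as covariate. Leaving out control embryo 5 for like genes, covariation and list counts was added after the data were seen.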

Additional observations from a re-analysis of the deposited data

Results flagged for a closer look

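Dixon's ratio was taken for 116 groups of 5 embryos, and 10 passed its 95% critical value of 0.71, where chance passes about 1 in 20. In 6 of these the embryo was control embryo 5. It lay high for Col11a1 (7.378, the other controls 6.66 to 6.75), Col12a1 (7.629, the others 5.18 to 5.55), Col5a1 (6.940, the others 6.14 to 6.34) and Col5a2 (7.964, the others 6.92 to 7.19). It also lay high for the mean of the surface ectoderm markers (5.422, the others 4.77 to 4.94) and low for the mean of the neuron markers (7.746, the others 8.73 to 9.04). The part of tissue content in these values was not tested.

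The other 4 were single low values. Transgenic embryo 5 read 5.090 for Col17a1, a hemidesmosome collagen (the others 5.26 to 5.32), and 5.828 for Col7a1, which anchors epidermis to dermis (the others 5.99 to 6.05). Control embryo 4 read 5.916 for Col7a1 (the others 6.04 to 6.09). Control embryo 1 read 5.445 for Col23a1, a transmembrane collagen (the others 5.80 to 5.92).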

How the results depend on the processing

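No collagen passed an adjusted p of 0.05 in limma under any alternative run, nor a threshold of 0.1 with all 10 arrays. Without control embryo 5, Col12a1 had an adjusted p of 0.0536 in limma, which lies below 0.1. The replicate block also called 0 collagens and left the median at -0.015. Calls over all 19938 genes were 21 in the fit as reported, 2 with the block, 8 with every probe set tested, 39 with array weights, 123 with the mesenchyme covariate, and 7 to 58 when 1 embryo was left out. Leaving out an embryo moved the median collagen difference between -0.062 (without transgenic embryo 2) and 0.051 (without control embryo 5), and it was also above 0 without transgenic embryo 5 (0.015). Array weights turned Col1a1 to 0.099, Col1a2 to 0.17, Col3a1 to 0.13, Col4a2 to 0.023 and Col26a1 to 0.047. The covariate turned Col1a1 to 0.017, Col1a2 to 0.10, Col3a1 to 0.086, Col4a2 to 0.016 and Col26a1 to 0.014, and brought Mmp2 past the threshold. Quantile normalization turned Col5a2 to -0.00016, and median centring turned Col5a2 to -0.011 and Col18a1 to -0.0075. Over the fits that left out 1 embryo, the difference ran from -0.33 to 0.33 for Col1a1, -0.25 to 0.41 for Col1a2, -0.20 to 0.30 for Col3a1, -0.074 to 0.19 for Col5a2, -0.14 to 0.066 for Col6a1, -0.011 to 0.22 for Col6a2, -0.27 to 0.095 for Col6a3, -0.12 to 0.066 for Col4a1 and -0.067 to 0.086 for Col4a2. It ran from -0.030 to 0.093 for Col9a1, -0.13 to 0.053 for Col11a1, -0.075 to 0.12 for Col18a1, -0.12 to 0.49 for Col12a1 and -0.17 to 0.17 for Col26a1. The upper end was the fit without control embryo 5 for all of these except Col9a1. The collagens past the adjusted p with a marker mean numbered 4 to 19 for mesenchyme, 0 to 12 for mural, 0 to 18 for endothelium and 0 to 16 for neuron markers when 1 array was left out, and the partner pairs 3 to 9, each lowest without control embryo 5. Without transgenic embryo 2 there were 11 for mesenchyme, 11 for endothelium and 5 for neuron markers, and without control embryo 3 there were 7 for neuron markers. Without the 2 farthest arrays there were 0 for each of the 4 marker means and 3 partner pairs. As deviations from group means, 16 passed with the mural and 17 with the neuron mean. The cause was not tested. The 8 collagens below the 40th percentile of mean signal are limited by signal over background.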
